A study of Mus musculus with 4 samples.

Results

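The SLC25 family, the mitochondrial solute carriers, was examined in Langerhans cells, which take up and present antigen in the epidermis. Its members were taken by name, as every gene symbol made of Slc25a and a number, which gave 47 of the 24441 symbols in the tables. Of these, 34 had a mean of at least 1 FPKM over all libraries and were tested for a difference between genotypes, among 10910 genes tested in all. FPKM counts sequenced fragments relative to transcript length and library size, so levels of different genes can be set side by side. A further 9 members lay above 0 and below 1 FPKM, and 4 were listed at 0 in every library. The members nearest to the limit were Slc25a14, just inside at a mean of 1.04 FPKM, and Slc25a42, just outside at 0.972 FPKM. Gene levels were measured by RNA sequencing of Langerhans cells sorted from epidermal suspensions of mice aged 4 weeks. Wild-type mice (WT) were compared with CD11cCreTfamfl/fl mice (Tfam cKO), which carry Cre driven by CD11c, a promoter active in dendritic cells and other CD11c-expressing cells, together with floxed alleles of Tfam. TFAM packages mitochondrial DNA and is needed for its transcription. Each group had 2 libraries, numbered 1 and 2, and the labels do not say how many mice went into each or whether mice were pooled. A p-value therefore reflects the spread among these libraries, and how much of it lies between mice cannot be told. The spread used for each gene was drawn largely from genes of similar level, not from its own values alone. Transcripts of Y-linked genes, given below, differed between the libraries numbered 1 and 2 in both groups.

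Almost all SLC25 proteins sit in the inner mitochondrial membrane, which is otherwise closed to charged metabolites. Each is built from repeated domains that open by turns to the cytosol and to the matrix, and most exchange a substrate on one side for another on the opposite side. The family carries ADP, ATP and phosphate for oxidative phosphorylation, citrate, malate and aspartate for biosynthesis and redox shuttles, amino acids, acylcarnitines, iron, glutathione, nucleotides and enzyme cofactors. All of its genes are nuclear, and their proteins are imported into the organelle. A few members are found elsewhere, Slc25a17 in peroxisomes and Slc25a46 in the outer mitochondrial membrane.

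No value of total reads is given in the tables. By their width, Cufflinks' 95% intervals correspond to a median of 210 to 345 effective fragments per tested member in a library. Fragment numbers recovered from 33 members gave relative depths of 1 for WT 1, 1.37 for WT 2, 0.879 for Tfam cKO 1 and 1.56 for Tfam cKO 2. The targeted gene, Tfam, read 3.17 FPKM in WT 1 and 1.61 FPKM in WT 2, with 1.65 and 1.53 FPKM in the Tfam cKO libraries, so WT 2 was as low as they were. The Tfam level thus did not separate the groups and does not check the labels, and directions below rest on the labels alone. A gene-level value can include fragments of the exons that Cre leaves in place. Why WT 2 was low was not tested. Of 8 Langerhans cell genes, Cd1d1 was near 0 in all libraries, at 0.0461 to 0.207 FPKM. The others were well above 1 FPKM in all libraries. Cd207, the gene for langerin, was at 1374 to 2098 FPKM, and Itgax, the lowest of these others, was at 41.0 to 52.7 FPKM. Keratinocyte genes, all 8 of 8 detected, summed to 11701 and 7648 FPKM in WT and to 11170 and 9935 FPKM in Tfam cKO. Macrophage genes summed to 116 and 113 FPKM in WT and to 208 and 142 FPKM in Tfam cKO. Of those 6 genes, Cd163 and Fcgr1 were listed at 0 in every library. C1qa and C1qb carried most of the difference, C1qa with 22.1 and 29.3 FPKM against 88.5 and 55.2 FPKM, while Adgre1, the most abundant, had 91.5 and 80.7 FPKM against 97.8 and 76.8 FPKM. Dendritic epidermal T cell genes, of which 5 of 7 were in the tables, summed to 227 and 245 FPKM with WT and to lower values, 160 and 224 FPKM, with Tfam cKO. Cd3g carried most of the difference, with 79.2 and 85.1 FPKM against 36.9 and 70.1 FPKM. Thy1 had 65.6 and 66.3 FPKM against 67.0 and 66.8 FPKM, and Cd2 had 44.0 and 41.4 FPKM against 29.9 and 45.3 FPKM. The summed genes of melanocytes, fibroblasts and mast cells stayed at 5.35 FPKM or less. The part of these cells in the carrier values below was not tested. The Y-linked gene Ddx3y was listed at 0 in both libraries numbered 1 but reached 28.2 FPKM in WT 2 and 9.34 in Tfam cKO 2, with Xist at 64.6 and 5.38 FPKM in the WT libraries and 39.0 and 45.6 FPKM in the Tfam cKO libraries, and the labels give no sex.

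Stretches of promoter sequence were available from RefSeq (GRCm38.p6) for 36 of the 47 members, 46 promoters in all, each running from 250 bases before to 50 bases after a transcription start site. Those of Slc25a25 and Slc25a36 are shown because these were the tested members with the largest positive and the largest negative fold change, and because theirs were the only 2 member promoters that held the cyclic AMP response element TGACGTCA, set in capitals. They were chosen after their values had been seen. That element is the full palindromic site bound by CREB and related factors. Slc25a25 has 3 annotated start sites, and the promoter shown, chr2:32424017-32424316 on the minus strand, is the only one of them with the element, which begins 150 bases before the start. In the promoter of Slc25a36, chr9:97110992-97111291 on the minus strand, it begins 161 bases before the start. Both sequences are written 5′ to 3′ in the direction of transcription.
Slc25a25: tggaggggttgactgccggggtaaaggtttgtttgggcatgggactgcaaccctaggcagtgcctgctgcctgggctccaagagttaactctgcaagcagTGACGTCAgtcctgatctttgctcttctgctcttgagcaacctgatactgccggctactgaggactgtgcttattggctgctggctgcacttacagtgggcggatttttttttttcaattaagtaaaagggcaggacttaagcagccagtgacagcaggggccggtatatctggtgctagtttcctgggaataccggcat
Slc25a36: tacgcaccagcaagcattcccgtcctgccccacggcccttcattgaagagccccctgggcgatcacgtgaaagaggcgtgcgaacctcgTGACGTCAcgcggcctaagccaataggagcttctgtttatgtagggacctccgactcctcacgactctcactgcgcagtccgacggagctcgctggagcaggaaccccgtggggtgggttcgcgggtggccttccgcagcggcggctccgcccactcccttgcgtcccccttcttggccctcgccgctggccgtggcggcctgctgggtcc

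Over the family, the element was found in 2 of the 34 promoters of tested members (5.88%) and in 3.09% of the 10851 promoters of tested protein-coding genes. Those 34 promoters belong to 26 of the 34 tested members, as some have several start sites and others have no promoter sequence. Each motif was searched as written on both strands of the 300 bases. The GC box GGGCGG, which SP1 and related factors bind, was present in 38 of 46 member promoters (82.6%), against 46.2% of promoters of all protein-coding genes. Restricted to tested members it was present in 31 of 34 promoters (91.2%), against 64.0% of promoters of all tested protein-coding genes, where members with several start sites count several times. The CCAAT box, spelled CCAAT, was present in 16 of those 34 (47.1%), against 37.1%. Among motifs of factors tied to mitochondrial genes, the NRF1 core GCGCATGC was found in the promoters of Slc25a31 and Slc25a54, both listed at 0. The ERR element AAGGTCA was found in that of Slc25a34 and the YY1 core AAGATGGC in that of Slc25a3. In that order, these motifs were in 4.35%, 2.17% and 2.17% of the 46, against 3.52%, 4.08% and 3.05% of promoters of all protein-coding genes. The ATF4 site TGATGNAA was in none of the 46, against 3.60% of promoters of all protein-coding genes. A match describes the letters of this window and does not show that a factor binds there.

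In these libraries of sorted cells, which also held keratinocyte transcripts, the family's transcripts were dominated by a few carriers of energy metabolism. Summed over all members, they came to 880 and 842 FPKM in the WT libraries and to 935 and 941 FPKM in the Tfam cKO libraries. Slc25a5, Slc25a3 and Slc25a4 made up 65.0% of the family's mean sum, and the 8 members of highest level made up 80.5%. Between the highest and the lowest tested member the mean level differed 270-fold, and 14 members reached 10 FPKM. The median tested member stood at 8.84 FPKM, near the median of 8.41 FPKM over all tested genes. From the fourth member on, levels fell gradually, and the ranges of neighbours over the libraries overlapped for many, such as Slc25a11 at 27.2 to 28.9 FPKM and Slc25a17 at 22.0 to 28.9 FPKM.

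**Figure D1:**
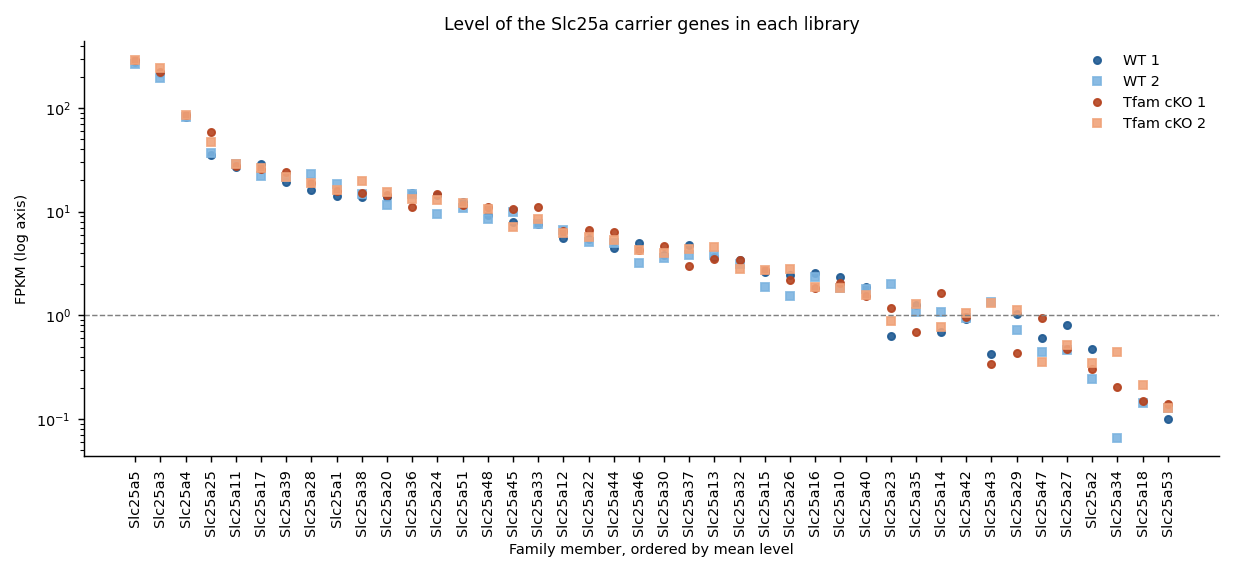
Level of 42 of the 43 members with a mean above 0, in FPKM on a log axis, ordered by mean; each point is a library, points at 0 are not drawn, and the dashed line marks 1 FPKM. Slc25a5, Slc25a3 and Slc25a4 stand above all others in every library, and the 4 libraries lie close together for most members above 1 FPKM.

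The carriers that serve ATP synthesis held the top of the order. Slc25a5, the ADP/ATP carrier found in most tissues, measured 278 and 265 FPKM across the WT libraries against 293 and 292 FPKM across the Tfam cKO libraries. Slc25a3, which brings phosphate (and, as a splice form, copper) into the matrix, had 219.6 and 195 FPKM with WT and 220.3 and 240 FPKM with Tfam cKO. Slc25a4, the ADP/ATP carrier best known from heart and muscle, read 82.0 and 82.5 FPKM in the WT libraries and 84.7 and 85.4 FPKM in the Tfam cKO libraries. The order Slc25a5, Slc25a3, Slc25a4 was the same in all 4 libraries. For each of the 3, both Tfam cKO libraries lay above both WT libraries, as they did for 25.4% of all tested genes, and for Slc25a5 and Slc25a4 the sign of the fold change turned when libraries were scaled to equal totals or quantile normalized. Log2 fold changes were 0.11 for Slc25a5, 0.15 for Slc25a3 and 0.05 for Slc25a4, with limma adjusted p-values of 0.966, 0.956 and 0.988. The 95% intervals, −0.33 to 0.54 for Slc25a5 and −0.29 to 0.59 for Slc25a3, bound how large a difference these libraries could have missed. Slc25a31, the ADP/ATP carrier of the germ line, was listed at 0 throughout.

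Slc25a25 followed as the fourth member by level and had the largest fold change of the tested members. It encodes a calcium-regulated carrier that exchanges ATP-Mg for phosphate and so sets the adenine nucleotide content of the matrix. WT 1 had 35.5 FPKM, WT 2 had 36.9 FPKM, Tfam cKO 1 had 58.4 FPKM and Tfam cKO 2 had 47.1 FPKM. Both Tfam cKO libraries lay above both WT libraries, and Cufflinks' intervals, 33.3 to 37.6 and 34.9 to 38.8 FPKM in WT against 55.3 to 61.5 and 44.9 to 49.3 FPKM in Tfam cKO, did not overlap. Tfam cKO 1 was the highest library, and the summed macrophage genes were also highest there and next in Tfam cKO 2, though Adgre1 was lowest in Tfam cKO 2. The summed T cell genes were lowest in Tfam cKO 1, though Thy1 hardly differed among the libraries, at 65.6 to 67.0 FPKM. The part of these genes in the result was not tested. In bulk RNA, another mix of cells and another amount of transcript per cell cannot be told apart. Cufflinks' intervals describe each library by itself, without the spread between libraries, and correspond to 1064 to 1840 effective fragments. The WT mean was 36.2 ± 1.0 FPKM and the Tfam cKO mean was 52.8 ± 7.99 FPKM (SD, n = 2 each). The log2 fold change was 0.53 (SE 0.18, 95% interval 0.11 to 0.94), which did not pass the test (limma adjusted p = 0.663 over all tested genes). Across all tested genes, 338 (3.10%) had a larger positive fold change. The log2 difference was 0.70 between the libraries numbered 1 and 0.35 between those numbered 2. Leaving out Tfam cKO 1 lowered the fold change to 0.37, and the other omissions gave 0.50 to 0.68. By the tables' own coordinates, of a build that was not identified, Slc25a25 lies on chromosome 2 from 32270006 to 32306990 and overlaps Naif1, and the labels do not state whether strand was kept.

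The other carriers of the ATP-Mg/phosphate group were lower. Slc25a24 measured 14.4 and 9.58 FPKM across the WT libraries against 14.7 and 13.0 FPKM across the Tfam cKO libraries, with overlapping groups (log2 fold change 0.21, limma adjusted p = 0.931). Slc25a23 had 0.635 and 1.99 FPKM with WT and 1.17 and 0.873 FPKM with Tfam cKO. WT 2 was the highest library for it, and without WT 2 its log2 fold change moved from −0.13 to 0.30. Slc25a41 and Slc25a54, which belong to the same branch, were listed at 0 in all libraries.

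No member passed the test in either direction. Over all 10910 genes, 2 (0.0183%) passed with higher levels in Tfam cKO and 0 (0%) with lower levels, at a threshold of 0.05 on limma's adjusted p, and 0 of 34 is a share near that background. At an unadjusted p below 0.05, 1 member, Slc25a25, was higher and 0 were lower, against 547 (5.01%) higher and 130 lower over all tested genes. The median log2 fold change of the 34 members was 0.08 and that of all tested genes was 0.07, with the middle of the distribution running from −0.04 to 0.21 in the family and from −0.06 to 0.21 over all genes (lower to upper quartile). For 12 members both Tfam cKO libraries lay above both WT libraries, against 25.4% of all tested genes, and for 3 both lay below, against 9.75%. With libraries rescaled to equal totals, which shifted the median of all genes by −0.11, these counts became 5 higher and 5 lower, beside 14.3% and 19.8% of all tested genes. After that rescaling Slc25a22, Slc25a25, Slc25a30, Slc25a33 and Slc25a48 still lay higher, and Slc25a10, Slc25a16, Slc25a32, Slc25a36 and Slc25a40 lay lower. The 95% interval of the fold change lay between −1 and 1 for all 34 members, as it did for 94.5% of all tested genes. Changes of 2-fold or more in FPKM + 1 thus fell outside the interval of every tested member. For members near 1 FPKM this scale understates changes, so a 2-fold change of FPKM itself can lie inside the interval. Only 2 members, Slc25a25 and Slc25a33, had a log2 fold change of 0.3 or more in size, against 18.4% of all tested genes.

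**Figure D2:**
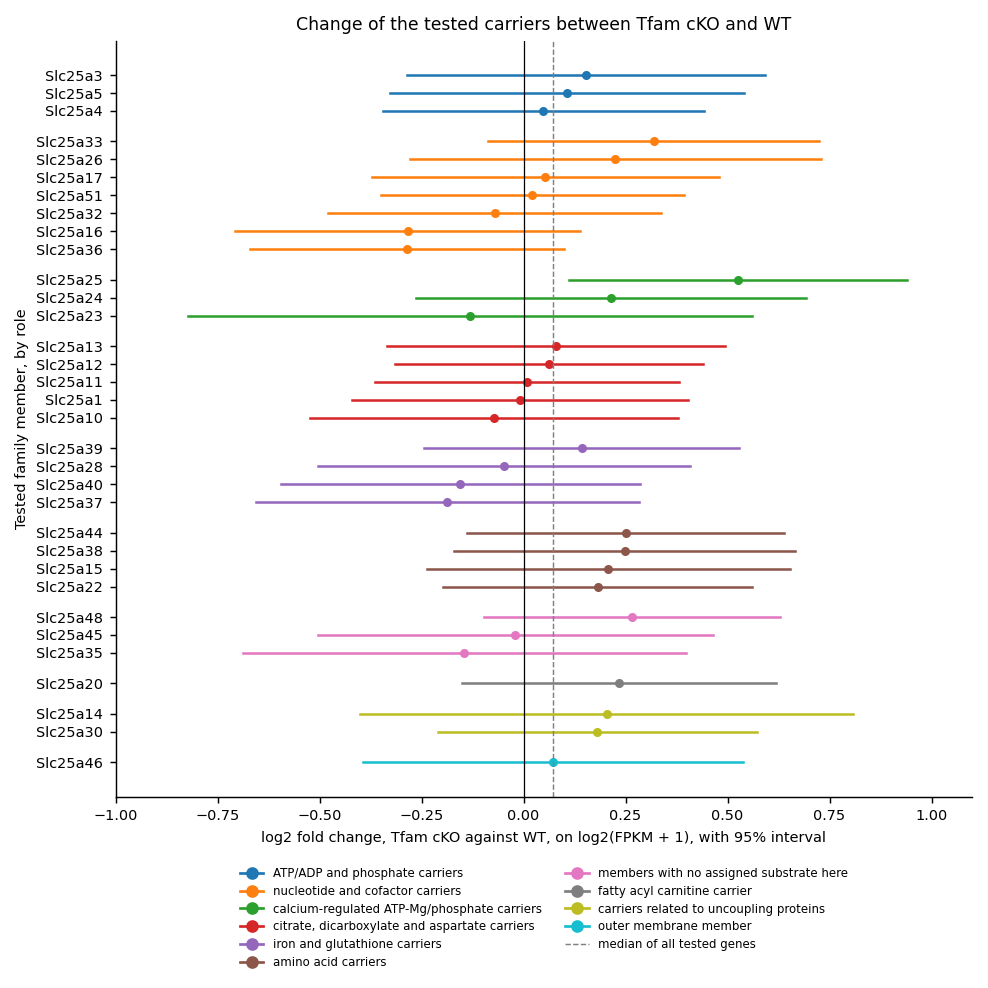
Log2 fold change of Tfam cKO against WT on log2(FPKM + 1) for 33 of the 34 tested members, grouped and coloured by role, with limma's 95% interval as a line; the dashed line is the median of all tested genes, 0.07. Only the interval of Slc25a25, 0.11 to 0.94, leaves out 0.

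The family's summed level was higher in Tfam cKO, without overlap of the groups, at 938 ± 4.18 against 861 ± 26.9 FPKM (SD, n = 2 each), a gap of 77.6 FPKM that did not survive scaling to the library total. The family took 0.238% and 0.248% of all FPKM in the WT libraries against 0.236% and 0.250% in the Tfam cKO libraries, which overlapped. Total FPKM ranged from 338783 in WT 2 to 395707 in Tfam cKO 1. With 2 libraries against 2, an exact permutation test cannot give a two-sided p below 0.333, which was its value for the sum, and it gave 1 for the share.

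All 4 tested members grouped here as amino acid carriers lay higher in each Tfam cKO library than in either WT library. So did 25.4% of all tested genes. The median log2 fold change of the 4 was 0.23, and none passed the test. After rescaling to equal totals only Slc25a22 of these 4 kept separate groups, beside 14.3% of all tested genes. The aspartate/glutamate carriers Slc25a12 and Slc25a13, which also carry amino acids, are grouped with the citrate carriers below, and their groups overlapped. Slc25a38, which carries glycine used for heme synthesis, read 13.8 and 14.8 FPKM in the WT libraries and 15.0 and 19.7 FPKM in the Tfam cKO libraries. Tfam cKO 1 stood just above WT 2, and Tfam cKO 2 lay farther apart (log2 fold change 0.25, limma adjusted p = 0.905), and without Tfam cKO 2 the fold change was 0.06. Slc25a44, a carrier of branched-chain amino acids, measured 4.46 and 4.96 FPKM across the WT libraries against 6.31 and 5.30 FPKM across the Tfam cKO libraries (log2 fold change 0.25, limma adjusted p = 0.896). Slc25a22, the main glutamate carrier here, had 5.49 and 5.10 FPKM with WT and 6.62 and 5.68 FPKM with Tfam cKO. Slc25a15, the ornithine carrier of the urea cycle and polyamine supply, read 2.60 and 1.89 FPKM in the WT libraries and 2.71 and 2.75 FPKM in the Tfam cKO libraries. WT 1 lay close to the Tfam cKO libraries for it. Further members were low: Slc25a29, a carrier of basic amino acids, reached at most 1.13 FPKM, Slc25a2 at most 0.470 FPKM and Slc25a18 at most 0.213 FPKM.

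Carriers of citrate, dicarboxylates and aspartate showed small differences, with a median log2 fold change of 0.01 over 5 tested members and overlapping groups for all 5. Slc25a11, which exchanges oxoglutarate for malate, measured 27.2 and 28.9 FPKM across the WT libraries against 27.6 and 28.9 FPKM across the Tfam cKO libraries. Its log2 fold change was 0.01 with a 95% interval of −0.36 to 0.38 (limma adjusted p = 0.996). Slc25a1, which exports citrate for lipid synthesis, had 14.1 and 18.3 FPKM with WT and 15.7 and 16.3 FPKM with Tfam cKO. The aspartate/glutamate carriers of the malate-aspartate shuttle were both present, Slc25a12 at 5.61 to 6.63 FPKM and Slc25a13 at 3.52 to 4.59 FPKM. Slc25a10, the dicarboxylate carrier, was at 1.82 to 2.36 FPKM, and Slc25a21, which carries oxodicarboxylates of lysine breakdown, was listed at 0.

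Among the 8 tested carriers of nucleotides and cofactors, groups were separate for 3, 1 higher and 2 lower in Tfam cKO, beside 25.4% and 9.75% of all tested genes. Slc25a33, which brings pyrimidine nucleotides into the matrix, where they are used for mitochondrial DNA and RNA, read 7.62 and 7.68 FPKM in the WT libraries and 11.2 and 8.56 FPKM in the Tfam cKO libraries. Its paralogue Slc25a36 measured 15.1 and 14.9 FPKM across the WT libraries against 11.0 and 13.4 FPKM across the Tfam cKO libraries. Groups did not overlap for either gene, and Tfam cKO 1 lay farther from WT than Tfam cKO 2 in both. In the coordinates of the files Slc25a33 lies on chromosome 4 from 149118144 to 149148376 and Slc25a36 on chromosome 9 from 96977429 to 97011460. Log2 fold changes were 0.32 for Slc25a33 (95% interval −0.09 to 0.72, limma adjusted p = 0.868) and −0.29 for Slc25a36 (−0.67 to 0.10, limma adjusted p = 0.873), neither past the test. Without Tfam cKO 1 they were 0.14 and −0.16. Slc25a16, proposed to carry coenzyme A, had 2.58 and 2.36 FPKM with WT and 1.83 and 1.86 FPKM with Tfam cKO. Both Tfam cKO libraries lay below WT (log2 fold change −0.28, limma adjusted p = 0.892), with Cufflinks' intervals overlapping between WT 2, 1.94 to 2.78 FPKM, and Tfam cKO 2, 1.52 to 2.21 FPKM. Slc25a17, the peroxisomal cofactor carrier, was the highest of the group at 28.9 and 22.0 FPKM in the WT libraries and 25.8 and 26.6 FPKM in the Tfam cKO libraries. The NAD carrier Slc25a51 was at 10.8 to 12.4 FPKM, the folate and FAD carrier Slc25a32 at 2.82 to 3.45 FPKM and the S-adenosylmethionine carrier Slc25a26 at 1.54 to 2.77 FPKM. Groups overlapped for all 3. Slc25a26 overlaps Lrig1 in the files, so fragments there could belong to either.

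**Figure D3:**
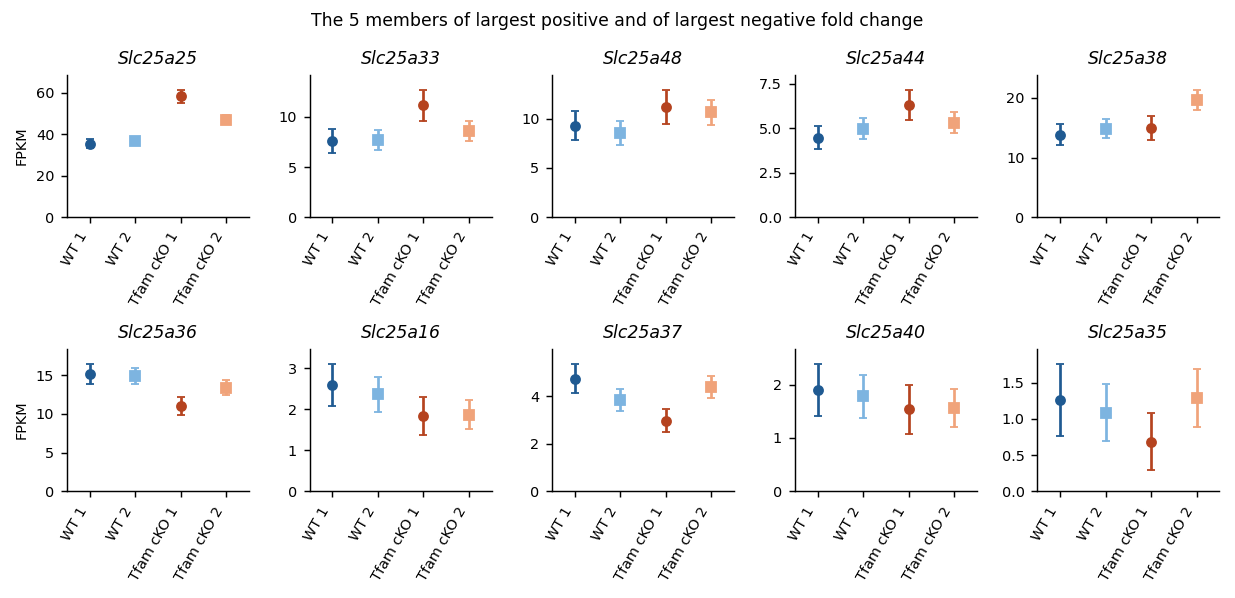
FPKM in each library of the 5 tested members with the largest positive fold change (upper row) and the 5 with the largest negative fold change (lower row), on linear axes that start at 0, with Cufflinks' 95% interval as a bar. The intervals are clear of each other between the groups only for Slc25a25, at 35.5 and 36.9 FPKM in WT against 58.4 and 47.1 FPKM in Tfam cKO.

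Iron and glutathione carriers were led by Slc25a39, needed for glutathione import into the matrix, at 19.2 and 21.8 FPKM in the WT libraries and 24.0 and 21.4 FPKM in the Tfam cKO libraries. Its paralogue Slc25a40 read 1.89 and 1.78 FPKM in the WT libraries and 1.54 and 1.56 FPKM in the Tfam cKO libraries, lower in both Tfam cKO libraries (log2 fold change −0.16, limma adjusted p = 0.956). Of the mitoferrins, which bring iron into the matrix, Slc25a28 had 16.2 and 23.2 FPKM with WT and 18.7 FPKM in both Tfam cKO libraries, which lay between the WT values. Slc25a37, the mitoferrin of red cell precursors, measured 4.75 and 3.83 FPKM across the WT libraries against 2.98 and 4.39 FPKM across the Tfam cKO libraries (log2 fold change −0.19, limma adjusted p = 0.947). Its sign rested on Tfam cKO 1, without which the log2 fold change was 0.03.

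Slc25a20, which brings acylcarnitines into the matrix for fatty acid oxidation, had 13.7 and 11.5 FPKM with WT and 14.5 and 15.5 FPKM with Tfam cKO, with separate groups. The enzymes on either side of it, Cpt1a at 6.60 to 9.19 FPKM and Cpt2 at 2.20 to 3.95 FPKM, had overlapping groups. Slc25a48 read 9.31 and 8.53 FPKM in the WT libraries and 11.2 and 10.6 FPKM in the Tfam cKO libraries. It was the most even of the 5 members with the largest positive fold changes, with log2 differences of 0.24 between the libraries numbered 1 and 0.29 between those numbered 2 (log2 fold change 0.27, 95% interval −0.10 to 0.63, limma adjusted p = 0.873). Slc25a45 was at 7.16 to 10.7 FPKM, and Slc25a35, at 1.26 and 1.09 FPKM in the WT libraries and 0.685 and 1.29 FPKM in the Tfam cKO libraries, and overlapping Rangrf in the files, turned from a log2 fold change of −0.14 to 0.08 without Tfam cKO 1. Slc25a46, which takes part in the shaping of mitochondrial membranes, was at 3.22 to 4.95 FPKM. Of the members related to uncoupling proteins, Slc25a30 was at 3.57 to 4.68 FPKM, Slc25a14 at 0.684 to 1.63 FPKM and Slc25a27 at 0.463 to 0.812 FPKM. Slc25a42, a coenzyme A carrier, Slc25a47, best known from liver, Slc25a43, Slc25a34 and Slc25a53 made up the rest of the members below 1 FPKM on average, with single libraries up to 1.35 FPKM.

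Several transport steps are shared by paralogues, and the balance between them was compared as the share each took of its group's FPKM. The widest gap between groups was in the pyrimidine nucleotide carriers, where Slc25a33 took 33.5% and 34.0% in the WT libraries against 50.4% and 39.0% in the Tfam cKO libraries. The means were 33.7 ± 0.365% and 44.7 ± 8.01% (SD, n = 2 each), a difference of 11.0 percentage points, of 16.9 between the libraries numbered 1 and 5.03 between those numbered 2. An exact permutation test gave a two-sided p of 0.333, the smallest that 2 libraries against 2 allow, so this test could not pass for any share. Slc25a25 took 70.2% and 76.1% of the ATP-Mg/phosphate carriers in the WT libraries against 78.6% and 77.3% in the Tfam cKO libraries. Slc25a39 took 91.0% and 92.4% of the glutathione carriers in the WT libraries against 94.0% and 93.2% in the Tfam cKO libraries. Slc25a15 took 84.7% and 88.6% of the ornithine carriers in the WT libraries against 89.9% and 88.8% in the Tfam cKO libraries. For these 3 the groups did not overlap (p = 0.333 each, exact permutation test), but the distance from WT 2 to the nearer Tfam cKO library was small.

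The remaining balances differed little or overlapped. Slc25a4 took 22.8% and 23.8% of the ADP/ATP carriers in the WT libraries against 22.5% and 22.6% in the Tfam cKO libraries, with Slc25a5 making up the rest (p = 0.333, exact permutation test). Slc25a12 took 60.4% and 63.3% of the aspartate/glutamate carriers in the WT libraries against 65.1% and 57.7% in the Tfam cKO libraries, so both Tfam cKO values lay outside the WT range, on opposite sides. Slc25a22 took 96.4% to 100% of the glutamate carriers. Slc25a37 took 22.7% and 14.2% of the mitoferrins in the WT libraries against 13.7% and 19.0% in the Tfam cKO libraries. Slc25a24 took 28.5% and 19.8% of the ATP-Mg/phosphate carriers in the WT libraries against 19.8% and 21.3% in the Tfam cKO libraries.

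**Figure D4:**
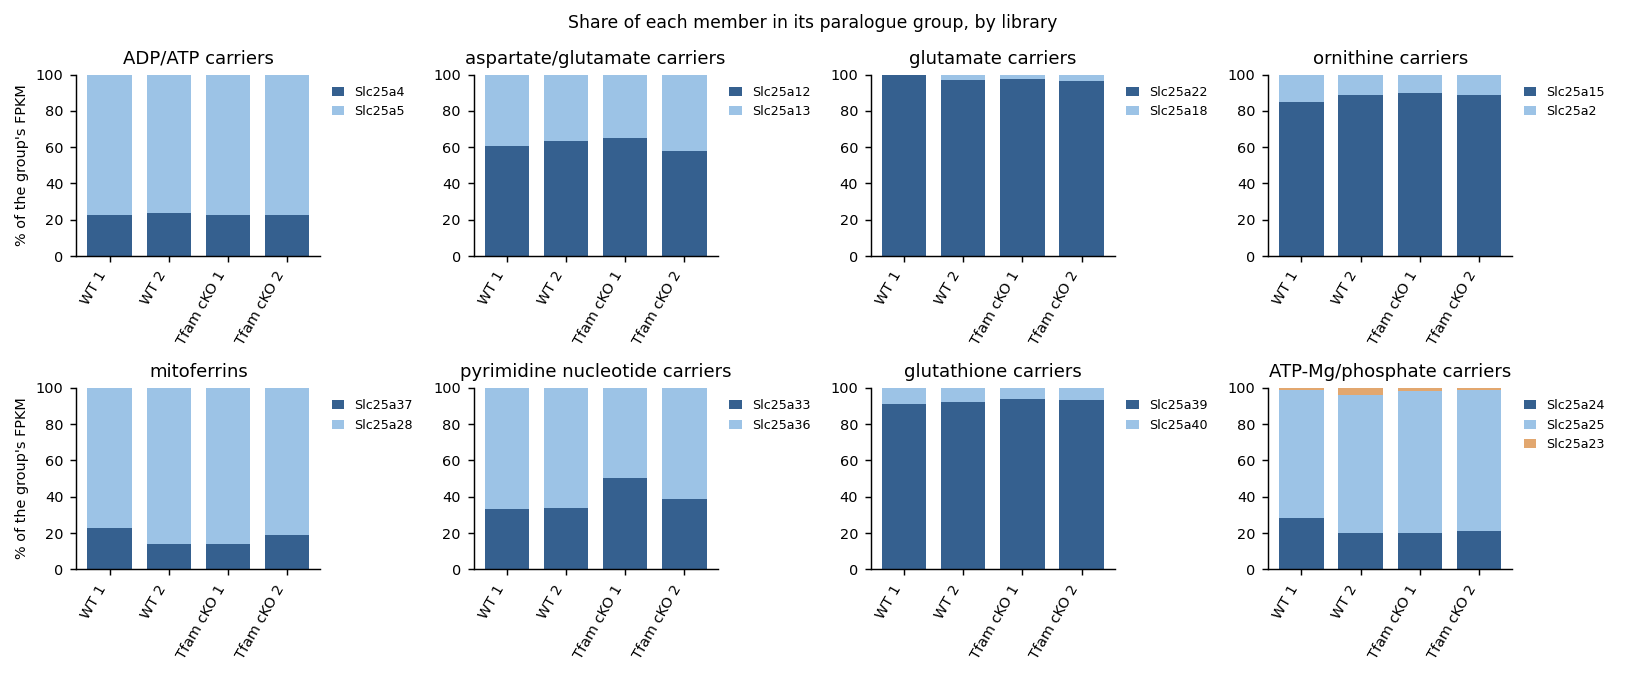
Share of each member in the summed FPKM of its paralogue group, in percent, with 1 stacked bar per library and 8 groups; members listed at 0 in all libraries are not drawn. The share of Slc25a33 is 33.5% and 34.0% in the WT libraries against 50.4% and 39.0% in the Tfam cKO libraries, and the ADP/ATP carriers keep nearly the same split in the 4 libraries.

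The differences between genotypes were next compared within each library number, since WT 1 and Tfam cKO 1, and likewise WT 2 and Tfam cKO 2, share a number in the labels. Of the 34 members, 18 had the same sign within both numbers, 13 higher and 5 lower in Tfam cKO, against 54.1% of all tested genes with the same sign. The median log2 difference was 0.06 for number 1 and 0.13 for number 2. Slc25a25, Slc25a33 and Slc25a48 were higher within both numbers, and Slc25a36 and Slc25a16 were lower within both. Groups that do not overlap must have the same sign within both numbers. This applies to these genes and to all 12 members higher and 3 lower with separate groups, so their signs here add no further evidence. Slc25a23 went from 0.41 within number 1 to −0.67 within number 2.

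**Figure D5:**
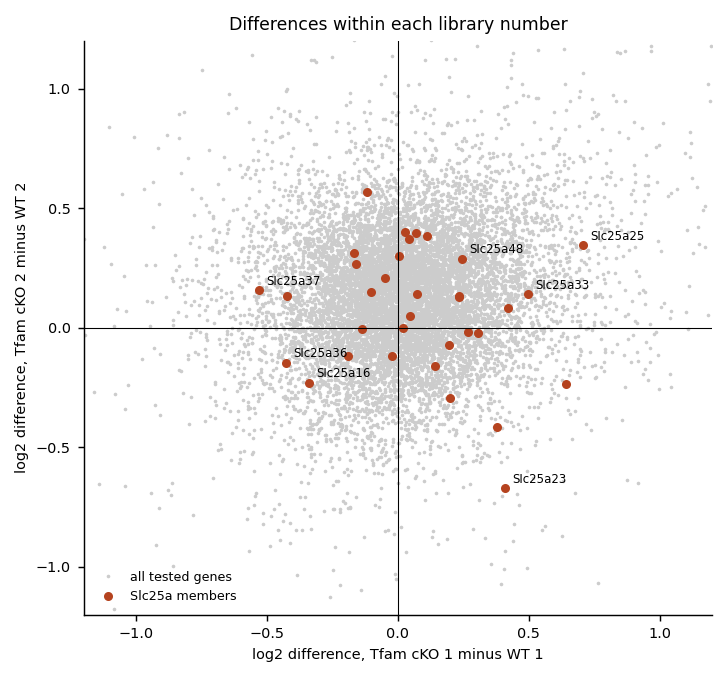
Log2 difference, on log2(FPKM + 1), between Tfam cKO and WT within the libraries numbered 1 (horizontal) and within those numbered 2 (vertical); red points are the 34 tested members and grey points all tested genes, of which 89 lie beyond the axes. Slc25a25, at 0.70 and 0.35, lies at the upper right edge of the members, and Slc25a23, at 0.41 and −0.67, lies far to the lower right.

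Genes that work beside the carriers were taken from lists of 88 genes, of which 78 were tested. None passed the test, the lowest limma adjusted p was 0.565, the median log2 fold change was 0.10, and both Tfam cKO libraries lay above both WT libraries for 24 and below for 3, beside 25.4% and 9.75% of all tested genes. Ucp2, a member of the same protein family under another symbol, measured 576 and 597 FPKM across the WT libraries against 606 and 525 FPKM across the Tfam cKO libraries, above every Slc25a gene in each library (log2 fold change −0.06, limma adjusted p = 0.988). Mtch1, an outer membrane relative of the carriers, had 33.5 and 26.2 FPKM with WT and 38.2 and 33.5 FPKM with Tfam cKO. The pyruvate carrier subunits Mpc2 and Mpc1, which belong to another protein family, were at 29.3 to 35.7 FPKM and 11.7 to 14.9 FPKM. Of the outer membrane channels, Tspo read 118 and 121 FPKM in the WT libraries and 140 and 141 FPKM in the Tfam cKO libraries, and Vdac1 had 82.6 and 62.0 FPKM in the WT libraries and 74.0 and 78.6 FPKM in the Tfam cKO libraries.

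Among enzymes of the carriers' substrates, the largest fold change of the lists was that of Mthfd2, an enzyme of mitochondrial folate metabolism, in which Slc25a32 takes part as a carrier. Mthfd2 measured 15.2 and 8.52 FPKM across the WT libraries against 24.2 and 20.3 FPKM across the Tfam cKO libraries, with separate groups (log2 fold change 0.90, limma adjusted p = 0.565), while the groups overlapped for Slc25a32. Odc1, which makes putrescine from ornithine, had 65.3 and 68.5 FPKM with WT and 105 and 80.5 FPKM with Tfam cKO (log2 fold change 0.46, limma adjusted p = 0.804). Oat, which converts ornithine to glutamate semialdehyde and is the highest of that list, had 105 and 82.3 FPKM with WT and 89.2 and 91.9 FPKM with Tfam cKO, with overlapping groups (log2 fold change −0.04). Mat2a, which makes the S-adenosylmethionine carried by Slc25a26, read 57.2 and 54.0 FPKM in the WT libraries and 82.0 and 65.4 FPKM in the Tfam cKO libraries (log2 fold change 0.39, limma adjusted p = 0.838). Mat2b, its regulatory subunit, had 18.0 and 15.1 FPKM with WT and lower values, 14.5 and 13.6 FPKM, with Tfam cKO (log2 fold change −0.22, limma adjusted p = 0.910). The malate dehydrogenases Mdh2 and Mdh1 of the malate-aspartate shuttle had log2 fold changes of 0.23 and 0.0014, with overlapping groups. For Cs, which makes the citrate that Slc25a1 exports, values were 59.3 and 53.1 FPKM with WT and 74.7 and 64.5 FPKM with Tfam cKO (log2 fold change 0.30, limma adjusted p = 0.876). The F1 subunits of ATP synthase, which uses the ADP and phosphate brought in by Slc25a5 and Slc25a3, had a median log2 fold change of 0.14 over 6 genes, and Atp5b measured 406 and 282 FPKM across the WT libraries against 419 and 342 FPKM across the Tfam cKO libraries. The subunit gene Smdt1 of the calcium uniporter complex had 134 and 143 FPKM with WT and 165 and 148 FPKM with Tfam cKO. None of these differences passed the test.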

How the data were processed

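RNA sequencing of sorted Langerhans cells was deposited as 1 table per library, 2 WT and 2 Tfam cKO. The deposited values are FPKM with 95% intervals, per the file headers from Cufflinks. CASAVA and Cufflinks were used with the build mm10, per the submitters' processing notes, which name no versions. Aligner and annotation: not given in the sources used here. Gene coordinates in the deposited tables differ from mm10 and are printed unchanged. RNA was extracted with Trizol and libraries were made with a NEBNext Ultra kit, per the labels' protocols, which do not state strand or poly(A) selection.

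The members, roles and gene lists were chosen with earlier results of these data known. FPKM of symbols with several loci were summed, and each member had 1 locus. Genes with a mean of at least 1 FPKM, 10910 of 24441, were compared in limma 3.58.1 under R 4.3.3 on log2(FPKM + 1), which understates changes of low genes, with genotype as the only term, a variance trend on the mean and p-values adjusted by Benjamini-Hochberg at 0.05. The fit was tested on simulated data. The upper arm of Cufflinks' interval was taken as 2 standard errors, which gives an effective number of fragments per value. Relative depth was the median ratio to WT 1 of fragments per FPKM. It was taken over the 33 members that reached a set minimum of effective fragments in every library. Total read numbers are unknown. Shares and sums were compared by two-sided exact permutation tests in scipy 1.17.1. Plots used matplotlib 3.10.9 in Python 3.11.15.

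Values per library and test statistics are given for the 8 members of highest level, the 5 of largest positive and 5 of largest negative fold change, paralogue groups and the 2 genes of highest level in each related list; other members are given by level. Alternatives were quantile normalization, equal totals (TPM), filters of 5 FPKM and none, pseudocounts of 0.1 and 5, no trend, robust moderation, a replicate block, the highest locus alone and each library left out. Counts of members with separate groups under other scalings were added after seeing the data. The values of 1 member are not reported here, though it is counted among the 47.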

Additional observations from a re-analysis of the deposited data

How the results depend on the processing

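Under each of the 14 alternatives to the fit, 0 members passed the threshold, and the lowest adjusted p of a named member, for Slc25a25, was 0.164 with the replicate number as a block. Of the 23 members named with a fold change, 12 kept their sign under every alternative and 11 did not. The median of the tested members moved from 0.08 to −0.0056 with quantile normalization and to −0.0245 with equal totals, beside −0.01 and −0.04 over all tested genes. With quantile normalization the log2 fold change was −0.0643 for Slc25a4, −0.0142 for Slc25a5, −0.1098 for Slc25a11, −0.022 for Slc25a12 and −0.0648 for Slc25a17. With equal totals it was −0.0748, −0.0165, −0.1134, −0.0492 and −0.0669 for the same genes and −0.0219 for Slc25a13. The count of members with both Tfam cKO libraries higher fell from 12 (25.4% of all tested genes) to 7 (16.3%) with quantile normalization and to 5 (14.3%) with equal totals, and the count lower was 3 (9.75%), 3 (17.3%) and 5 (19.8%). The summed level then differed by 2.25 TPM, against 77.6 FPKM as deposited.

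Leaving out each library in turn leaves 1 library in a group, whose spread is then taken from the other group. Log2 fold changes ran from −0.0327 to 0.0499 for Slc25a11, −0.041 to 0.1645 for Slc25a12, −0.0729 to 0.2335 for Slc25a13, −0.1366 to 0.2432 for Slc25a17, −0.5661 to 0.3024 for Slc25a23, −0.0556 to 0.4845 for Slc25a24, −0.2954 to 0.1985 for Slc25a28, −0.3655 to 0.0757 for Slc25a35 and −0.4048 to 0.0313 for Slc25a37. Signs held but sizes moved by over 1.5 times from the fit to all 4 libraries for Slc25a3 (0.07 to 0.24), Slc25a5 (0.07 to 0.14), Slc25a15 (0.05 to 0.37), Slc25a22 (0.09 to 0.28), Slc25a33 (0.14 to 0.49), Slc25a36 (−0.41 to −0.16), Slc25a38 (0.06 to 0.43), Slc25a39 (0.06 to 0.23) and Slc25a44 (0.14 to 0.36). The size nearest to 0 came without WT 2 for Slc25a3, Slc25a5 and Slc25a15, without WT 1 for Slc25a39, without Tfam cKO 2 for Slc25a38 and without Tfam cKO 1 for the others. Sizes moved less than that from the same fit for Slc25a25 (0.37 to 0.68) and Slc25a48 (0.21 to 0.32). The cause was not tested.

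The library numbers are shared between the groups, but the labels do not say what they mark, and 2 pairs are too few to establish a pairing. The deviations of the libraries of a number correlated at 0.26 across all tested genes and at −0.27 across members, genes not being independent replicates. A fit with the replicate block called 145 genes higher and 39 lower in all, and 0 members. Within numbers 1 and 2, the summed level differed by 55.6 and 99.5 FPKM. The shares differed by 4.66 and −5.63 percentage points for Slc25a12, 5.21 and 0.193 for Slc25a15, −8.93 and 4.79 for Slc25a37, 16.9 and 5.03 for Slc25a33, 2.95 and 0.786 for Slc25a39, −8.73 and 1.5 for Slc25a24 and 8.41 and 1.17 for Slc25a25. Members with few effective fragments, such as Slc25a14 with 8.4 to 20.5 per library, limit what can be seen at this depth.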

Other observations

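Slc25a43, an X-linked member below the limit for testing, followed the library numbers and not the genotypes. The libraries numbered 1 had 0.419 FPKM (WT) and 0.336 FPKM (Tfam cKO), and those numbered 2 had 1.35 FPKM (WT) and 1.32 FPKM (Tfam cKO). Those values rest on 3.7, 2.3, 21.1 and 22.6 effective fragments. It was picked out after its values were seen, and the difference between the numbers was not tested. The Y-linked genes Ddx3y and Eif2s3y were listed at 0 in both libraries numbered 1 and at 28.2 and 26.1 FPKM in WT 2 and 9.34 and 10.6 FPKM in Tfam cKO 2. The other X-linked members did not share this order: Slc25a5 measured 278 and 265 FPKM across the WT libraries against 293 and 292 FPKM across the Tfam cKO libraries, and Slc25a14 was highest in Tfam cKO 1, at 1.63 FPKM.

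Slc25a34, with no assigned substrate here, had 0 and 0.0662 FPKM with WT and 0.204 and 0.444 FPKM with Tfam cKO, on 0, 3.0, 6.0 and 22.8 effective fragments. It too was picked out after its values were seen, and it lay below the limit for testing.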
